A study of Mus musculus with 6 samples.

Results

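The hepatocyte growth factor (HGF) receptor MET, its relative RON, their ligands, and the proteases and inhibitors that control ligand activation were examined in 4T1 cells made resistant to axitinib. The 8 genes were taken from a fixed list and matched by Ensembl identifier among the 53465 genes of the count table: the receptors Met and Mst1r (RON), the ligands Hgf and Mst1 (macrophage-stimulating protein), the activating proteases Hgfac and St14 (matriptase), and the inhibitors Spint1 (HAI-1) and Spint2 (HAI-2). Of these, 4 had enough counts to be tested, namely Met, St14, Spint1, and Spint2, and the other 4 did not exceed 2 counts in any library. RNA sequencing covered 6 libraries, 3 from parental (P) and 3 from axitinib-resistant (AxR) cells of the mouse mammary carcinoma line 4T1. AxR cells were grown out from a metastasis (lung or lymph node) that arose after tumor surgery in Balb/c mice given axitinib, a VEGF receptor inhibitor, at 100 mg/kg/day, and were then kept in 0.5 μM axitinib for over 2 months. P cells carry no treatment label, although the growth description shared by all samples names 0.5 μM axitinib. Each group is a single cell line, so the lesion, time in the animal, drug exposure, and culture history cannot be told apart, and no source says whether replicates came from different cultures. The p-values hence measure the spread between these libraries alone, which may be technical.

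MET is a receptor tyrosine kinase that drives scattering, invasion, and growth of epithelial cells when it binds HGF, which is usually supplied by neighboring mesenchymal cells. HGF and macrophage-stimulating protein are secreted as inactive single chains and signal only after a serine protease cuts them. The HGF activator encoded by Hgfac circulates in plasma, whereas matriptase sits on the surface of epithelial cells, and both are blocked by the membrane-bound Kunitz-type inhibitors HAI-1 and HAI-2. The comparison asked which parts of this system the tumor cells transcribe themselves, and which differed between AxR and P cells.

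In RNA, the expressed part of the system was a receptor, a surface protease, and both inhibitors, with ligand transcripts at no more than 1 count in any library. Protein and receptor activation were not measured in these libraries. Against P cells, AxR cells had less Met and Spint1 mRNA, more Spint2 mRNA, and a difference in St14 that did not pass the test. Among tested members, 2 were lower and 1 was higher in AxR cells when called by the edgeR quasi-likelihood method (Benjamini-Hochberg adjusted p under 0.05). Of the 13550 tested genes in the table, 30.8% were lower and 32.8% higher, 63.5% in either direction, so a call by itself sets no member apart. No member reached an absolute log2 fold change of 1, which 7.99% of tested genes exceeded upward and 4.72% downward among calls. Total estimated counts were between 15495260 and 17294525 per library, and with a biological coefficient of variation of 0.0595 small differences could pass. Levels are given as CPM, counts scaled to a common library size. In bulk RNA, fewer cells expressing a gene and less RNA per cell cannot be told apart.

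The promoters of expressed and unexpressed members differed in base composition, and some are shown for that contrast. RefSeq windows of 300 bases (250 before to 50 after the transcription start, build GRCm38.p6) were found for 7 of the 8 genes, all but St14. The CpG dinucleotide, the site of DNA methylation in mammals, occurred 34 times in the window of Met, 28 times in that of Spint1, and 26 times in that of Spint2. Among members at the floor, the counts were 8 and 9 in both windows of Mst1r, 7 and 6 in those of Hgf, 5 in that of Mst1, and 2 in that of Hgfac. This contrast is shared with genes at large. The median was 21 CpG in the 12074 windows of tested genes and 4 in the 11248 windows of genes that never exceeded 3 counts, and 34.1% and 6.56% of these windows, respectively, held at least 26 CpG. For 5 genes, the part of the window before the first annotated start is printed on the strand of the gene with each CpG in capitals. The contrast is visible between Spint1 and Spint2, with 26 and 24 CpG in the printed 250 bases, and Hgf, with 4. It is not visible in the printed part for Met, which is only 93 bases long and holds 5 CpG against 6 in the 234 bases of Mst1r, because the other CpG of the Met window lie after the start and are not printed. Met is chr6:17463707-17463799 (plus strand), Spint1 is chr2:119237110-119237359 (plus strand), Spint2 is chr7:29281978-29282227 (minus strand), Mst1r is chr9:107906639-107906872 (plus strand), and Hgf is chr5:16553245-16553494 (plus strand).
Met: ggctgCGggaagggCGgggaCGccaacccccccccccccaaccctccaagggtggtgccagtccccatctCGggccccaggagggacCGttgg
Spint1: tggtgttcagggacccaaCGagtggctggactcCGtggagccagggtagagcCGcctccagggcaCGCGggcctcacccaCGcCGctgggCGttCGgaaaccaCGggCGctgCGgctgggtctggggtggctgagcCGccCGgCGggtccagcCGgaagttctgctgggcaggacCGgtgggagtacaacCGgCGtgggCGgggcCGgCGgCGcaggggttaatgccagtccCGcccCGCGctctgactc
Spint2: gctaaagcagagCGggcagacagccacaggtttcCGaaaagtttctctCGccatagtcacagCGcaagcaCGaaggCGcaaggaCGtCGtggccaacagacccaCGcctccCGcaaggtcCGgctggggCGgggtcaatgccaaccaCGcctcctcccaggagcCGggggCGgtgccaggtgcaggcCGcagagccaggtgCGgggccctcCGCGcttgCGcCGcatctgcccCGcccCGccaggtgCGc
Mst1r: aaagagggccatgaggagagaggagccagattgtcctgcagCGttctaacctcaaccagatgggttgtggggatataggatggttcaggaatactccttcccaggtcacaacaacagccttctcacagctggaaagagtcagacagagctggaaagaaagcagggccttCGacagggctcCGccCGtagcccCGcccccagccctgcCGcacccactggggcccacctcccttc
Hgf: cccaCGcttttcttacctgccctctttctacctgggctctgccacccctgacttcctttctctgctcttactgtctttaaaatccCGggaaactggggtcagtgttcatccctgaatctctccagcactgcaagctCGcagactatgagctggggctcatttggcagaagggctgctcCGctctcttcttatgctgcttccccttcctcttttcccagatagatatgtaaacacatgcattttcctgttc

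Simple motifs were counted on both strands of the same 300-base windows. The GC box (GGGCGG), which Sp1-family factors bind, matched 3 times each for Met, Spint1, and Spint2 and 2 times in the first window of Mst1r, and it was present in 35.7% of all 32851 windows. The AP-1 motif (TGANTCA) matched once in Met and once in Spint1, against 7.81% of all windows. The core of the hypoxia response element (ACGTG, in 19.6% of windows) matched 2 times in Met, and both matches lie in a single E-box (CACGTG, in 7.15% of windows), and it matched once in Hgfac. No TATA box (TATAAA, in 13.6% of windows) was found in any of these windows. A match describes the sequence only.

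Met, located at chr6:17463800-17573980 of GRCm38 on the plus strand (ENSMUSG00000009376.15), was the most highly expressed member. Its level was 321, 330, and 335 CPM in P replicates 1 to 3, and 297, 278, and 272 CPM in AxR replicates 1 to 3. All AxR values lay under all P values, and over the table the lines did not overlap, in either direction, for 68.3% of tested genes. The fold change was 0.859 (95% interval 0.799 to 0.922), or -0.22 on the log2 scale (SE 0.048, edgeR quasi-likelihood, Benjamini-Hochberg adjusted p = 0.00101). The exact two-sided permutation p was 0.1, the smallest that 3 libraries against 3 allow. In absolute log2 fold change, Met stood above 33.6% of tested genes, a small difference for these lines.

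Mst1r (chr9:107906873-107920383, plus strand), encoding RON, was not detectable at this depth. It had no count in P replicates 1 to 3, and 2, 0, and 1 counts in AxR replicates 1 to 3. A library with a count of 0 allows up to 3 counts, between 0.171 and 0.196 CPM here, and these floors cover counting error only. Per kilobase of exon, Met was at least 1116-fold higher than Mst1r in each P library, taking Mst1r at 3 counts.

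Transcripts of the ligands were likewise at the floor in both lines. Hgf (chr5:16553495-16620152, plus strand) had no count in any P library and a single count in AxR replicate 2. Per kilobase of exon, the Met transcript exceeded the floor of Hgf at least 1602-fold in each P library. Mst1 (chr9:108080436-108085003, plus strand) had 1, 0, and 1 counts in P replicates and 0, 1, and 1 counts in AxR replicates. Exons of Mst1 share 195 bases with Rnf123 on the opposite strand, which had between 542 and 754 counts per library, and it was not stated whether strand was used in counting. The HGF activator Hgfac (chr5:35041509-35048461, plus strand) had 1, 0, and 1 counts in P replicates and 1, 1, and 0 counts in AxR replicates. For these 3 genes the highest count in any library was 1, so no difference between AxR and P cells was detectable.

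**Figure D1:**
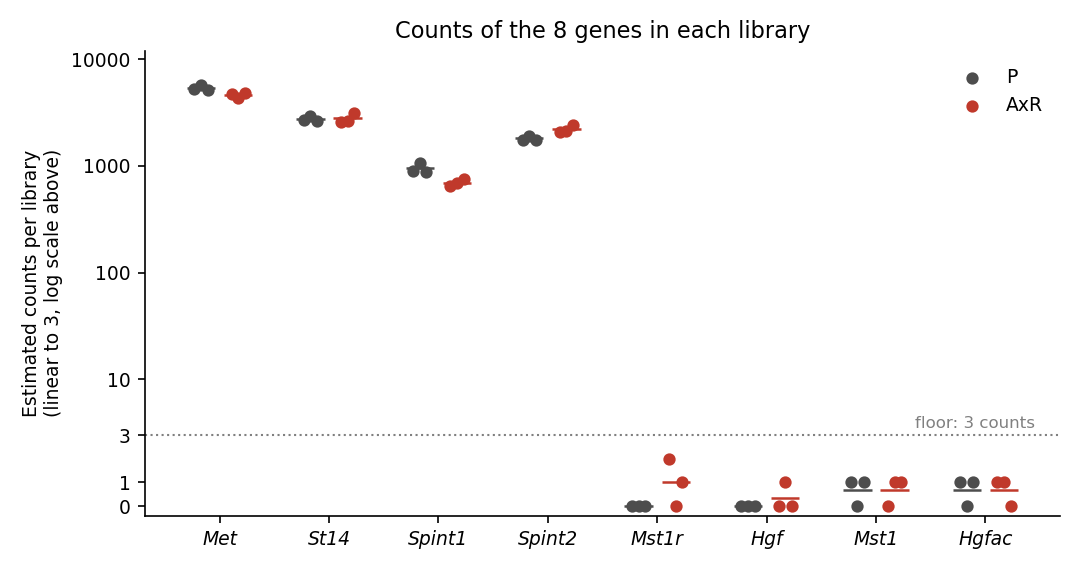
Estimated counts of each of the 8 genes in each library (points, P in grey and AxR in red) with the mean of each line (bars), on an axis that is linear up to 3 counts and logarithmic above. Met, St14, Spint1, and Spint2 lie between 650 and 5713 counts in every library, and Mst1r, Hgf, Mst1, and Hgfac between 0 and 2.

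St14 (ENSMUSG00000031995.9, chr9:31089402-31131853, minus strand), encoding matriptase, was expressed at nearly equal levels. It had 162, 171, and 172 CPM in P replicates 1 to 3 and 165, 170, and 180 CPM in AxR replicates 1 to 3. The lines overlapped. The fold change was 1.02 with a 95% interval from 0.946 to 1.10 (edgeR adjusted p = 0.636), and the exact two-sided permutation p was 0.6. St14 lies on chromosome 9, where the 757 tested genes had a median log2 fold change of -0.23. Tested against that median, St14 was 0.26 higher on the log2 scale (adjusted p = 0.000490 from the same edgeR test). The median came from these same data and was taken as exact, and the share of all genes that pass such a test was not computed. All 6 of its nearest tested neighbors, Snx19, Adamts8, Zbtb44, Aplp2, Prdm10, and Nfrkb, were lower in AxR cells, with log2 fold changes from -0.63 for Adamts8 to -0.14 for Aplp2. Over the table, 30.8% of tested genes were lower.

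Both matriptase inhibitors changed, in opposite directions. Spint1 (ENSMUSG00000027315.13, chr2:119237362-119249527, plus strand) had 55.0, 61.9, and 56.6 CPM in P replicates 1 to 3 and 41.3, 44.3, and 42.5 CPM in AxR replicates 1 to 3. The lines did not overlap, AxR being lower, and the fold change was 0.738 (95% interval 0.670 to 0.812), or -0.44 on the log2 scale (SE 0.065, edgeR adjusted p = 2.78e-05). In size this was the largest log2 fold change among the 4 tested members. Spint2 (ENSMUSG00000074227.12, chr7:29256323-29281912, minus strand) had 107, 111, and 115 CPM in P replicates 1 to 3 and 132, 135, and 136 CPM in AxR replicates 1 to 3. The lines did not overlap, AxR being higher, with a fold change of 1.21, or 0.28 on the log2 scale (SE 0.051, 95% interval 0.17 to 0.38, edgeR adjusted p = 0.000223). The 1011 tested genes of chromosome 7, which carries Spint2, had a median log2 fold change of 0.18, and against that median the difference of Spint2 was 0.097 and did not pass (adjusted p = 0.113 from edgeR). Spint1 differed from the chromosome 2 median of -0.093 by -0.35 (adjusted p = 0.000299), and Met from the chromosome 6 median of 0.0081 by -0.23 (adjusted p = 0.000858), both by that edgeR test.

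**Figure D2:**
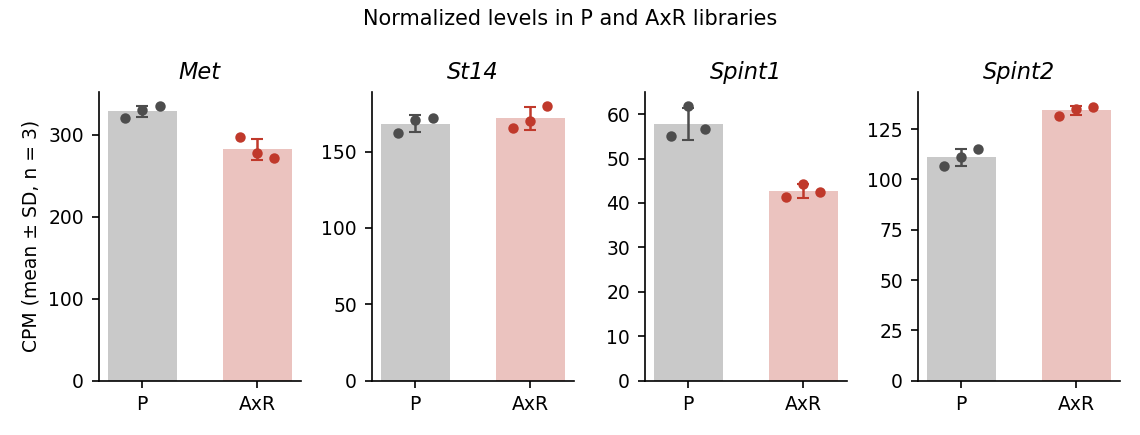
CPM of the 4 tested members in P and AxR cells, with bars for the mean, error bars for the SD (n = 3), and points for libraries. AxR libraries lie below P libraries for Met and Spint1, above them for Spint2, and overlap them for St14.

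Levels of different genes were compared as CPM per kilobase of annotated exon. The length used was the union of all annotated exons, 7679 bases for Met, 7637 for St14, 4556 for Spint2, and 2767 for Spint1. The transcript lengths made in these cells were not measured, so the order of the genes rests on the annotation. In P cells the order was Met (42.8 ± 0.903, SD, n = 3), Spint2 (24.4 ± 0.910), St14 (22.0 ± 0.721), and Spint1 (mean 20.9). The P libraries of Spint1, between 19.9 and 22.4, overlapped those of St14, between 21.2 and 22.6, so these neighbors in the order did not differ beyond their spread. In AxR cells the order was the same, with Met and Spint2 closer and Spint2, St14, and Spint1 farther apart than in P cells, and with Met between 35.4 and 38.7 (mean 36.7), Spint2 at 29.5 ± 0.507, St14 at 22.5 ± 0.982, and Spint1 at 15.4 ± 0.553 CPM per kilobase (SD, n = 3), and no neighbors overlapped. Averaged over both lines, Met exceeded 91.0% of tested genes in level per kilobase, Spint2 85.7%, St14 82.4%, and Spint1 77.9%.

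The ratio of 2 genes within a library hardly depends on how the libraries were scaled. Its absolute value depends on the annotated exon lengths, whereas its change between the lines does not. The length-scaled ratio of St14 to Spint1 was 1.06, 0.993, and 1.10 in P replicates 1 to 3, and 1.44, 1.38, and 1.52 in AxR replicates 1 to 3. It was 1.38-fold higher in AxR cells, without overlap of the lines. The ratio of St14 to Spint2 was 0.902, 0.915, and 0.891 in P replicates and 0.748, 0.750, and 0.787 in AxR replicates, and it was lower in AxR cells by a factor of 0.844, again without overlap. The St14 transcript was higher relative to Spint1 and lower relative to Spint2. The largest shift was between the inhibitors, which changed in opposite directions. The ratio of Spint1 to Spint2 was 0.862 ± 0.055 in P cells and 0.527 ± 0.015 in AxR cells (SD, n = 3 each). For all 3 ratios the exact two-sided permutation p was 0.1, the smallest possible. These changes restate those of the single genes in each ratio. How often other gene pairs separate the lines was not computed, and single genes did so for 68.3% of those tested. The ratio of Met to Mst1r was not tested, because Mst1r was at the floor.

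**Figure D3:**
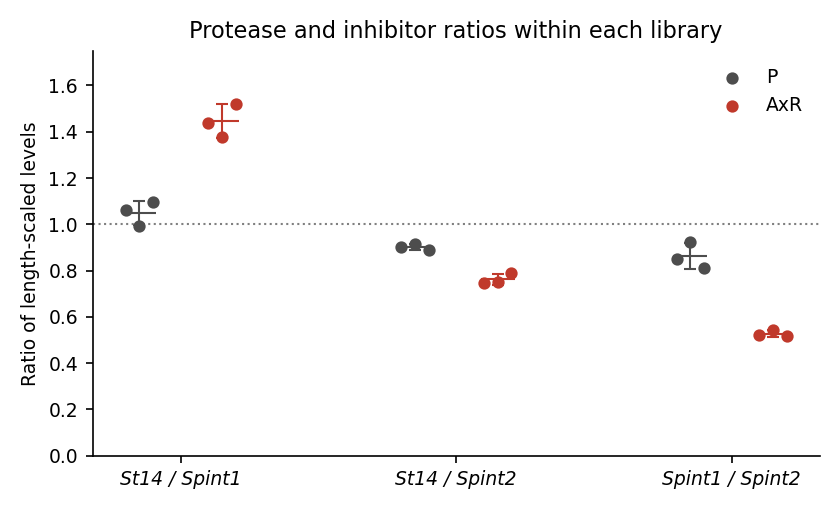
Ratios of length-scaled levels within each library (points) with the mean and SD of P (grey) and AxR (red) cells, n = 3 each. A dotted line marks equal levels per base of annotated exon. AxR libraries sit between 1.38 and 1.52 for St14 to Spint1, between 0.748 and 0.787 for St14 to Spint2, and between 0.518 and 0.545 for Spint1 to Spint2.

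Of the 6 nearest tested genes, 2 were called around Met and 2 around Spint2, all lower in AxR cells. Around Spint1 the called neighbors lay in both directions. Over the table, 30.8% of tested genes were lower and 32.8% higher, and with 6 genes each these counts set no neighborhood apart. Of the 3 nearest tested genes on each side of Met, Cav1 and Tes were lower in AxR cells, and Cav2, Capza2, St7, and Gm43844 did not pass. Cav1, which encodes the main caveolar coat protein and whose midpoint lies 195 kb from that of Met, had 75.8 ± 6.72 CPM in P and 9.65 ± 1.41 CPM in AxR cells (SD, n = 3 each), or -2.98 as log2 fold change (adjusted p = 6.50e-12 from edgeR). Tes, encoding a focal adhesion protein, had 170 CPM in P and 68.9 CPM in AxR cells on average, whereas Cav2, which lies between Tes and Cav1, had a log2 fold change of -0.0013 (adjusted p = 0.994 from edgeR). Around Spint1, 2 neighbors were higher (Vps18 and Chac1) and 2 lower (Gm14137 and Dll4). Dll4, a Notch ligand, had 106, 145, and 89 counts in P replicates 1 to 3 and 9, 8, and 3 counts in AxR replicates 1 to 3. Around Spint2 none was higher and 2 were lower, Kcnk6 and Sipa1l3, with log2 fold changes of -1.45 and -0.52.

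**Figure D4:**
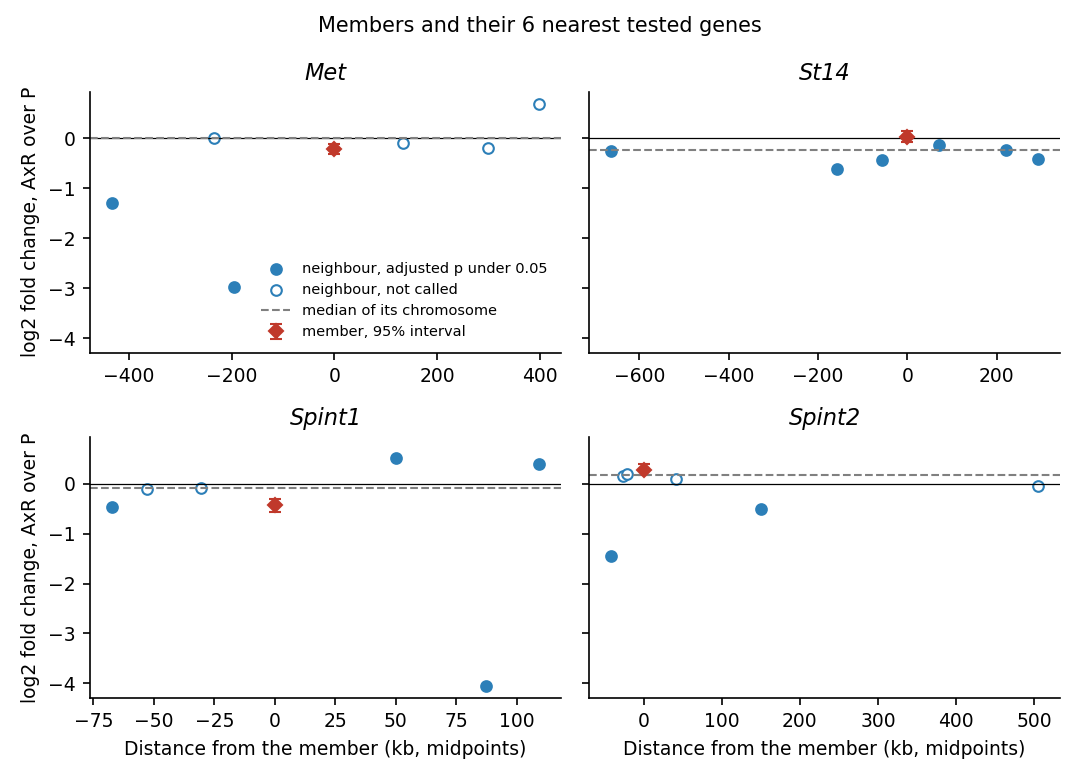
Log2 fold change (AxR over P) of each tested member (red diamond, 95% interval) and its 6 nearest tested genes (circles, filled where the adjusted p is under 0.05) against the distance between gene midpoints in kb, with the median of the chromosome dashed. St14 lies above all 6 of its neighbors, and Cav1 and Dll4 fall to -2.98 and -4.05.

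Genes for proteins that bind MET or RON at the cell surface moved in both directions, with Nrp1 the most reduced. Of 14 receptor partners, 13 were tested, 6 were lower, 3 were higher, and 4 did not pass, with a median log2 fold change of -0.17 against 0.0058 over all genes tested. For this and each following list, the share called among all tested genes was 63.5% in either direction. Nrp1, a co-receptor for VEGF and HGF, had 46.6, 51.7, and 49.7 CPM in P replicates 1 to 3 and 24.1, 24.7, and 19.1 CPM in AxR replicates 1 to 3, a fold change of 0.458 (adjusted p = 4.72e-08 from edgeR). Cd44, whose v6 isoform presents HGF to MET, had a fold change of 0.663, from 530 ± 18.9 to 351 ± 13.9 CPM (SD, n = 3 each), and isoforms were not resolved. Erbb3 and Plxnb2, a receptor that MET can phosphorylate and a plexin that pairs with MET, rose by 0.62 and 0.27 on the log2 scale. Plxnb1, another plexin of the list, went the other way, with a log2 fold change of -0.57 (adjusted p = 4.72e-07 from edgeR). Plxnb3 was at the floor in P cells (1, 0, and 0 counts) and had 1, 4, and 2 counts in AxR cells.

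Adaptors and effectors that couple the receptor to signaling moved both ways. Of 15, 14 were tested, 5 were higher, 5 lower, and 4 not called, and their median log2 fold change was -0.026. Gab1, the principal docking protein of MET, had 20.8, 20.2, and 21.6 CPM in P replicates 1 to 3 and 28.8, 31.9, and 32.5 CPM in AxR replicates 1 to 3, a fold change of 1.49 (adjusted p = 8.02e-06 from edgeR). Gab2, a paralog of Gab1, was lower, from 25.5 CPM in P to 16.4 CPM in AxR cells on average (log2 fold change -0.64, adjusted p = 2.46e-05 from edgeR). Shc1, an adaptor upstream of Ras, had a log2 fold change of 0.26. Plcg1 and Crkl, a phospholipase and an adaptor recruited by activated receptors, were lower, with log2 fold changes of -0.68 and -0.67. Muc20, a mucin that binds MET, had 1, 0, and 0 counts in P cells and 4, 1, and 0 counts in AxR cells.

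Among genes for receptor turnover and shedding, the largest difference was in Sh3kbp1. It encodes CIN85, the adaptor that joins CBL to endophilin during MET internalization. Sh3kbp1 had 39.9, 41.1, and 43.6 CPM in P replicates 1 to 3 and 8.32, 7.78, and 7.74 CPM in AxR replicates 1 to 3, a fold change of 0.191 (log2 fold change -2.38, SE 0.081, edgeR adjusted p = 3.90e-12). Cbl, the ubiquitin ligase that marks MET for degradation, was lower as well, with 267 ± 6.01 CPM in P and 163 ± 1.92 CPM in AxR cells (SD, n = 3 each). Its paralog Cblb was higher, with 43.5 ± 1.36 CPM in P and 70.1 ± 5.66 CPM in AxR cells, and Hgs, which sorts ubiquitinated receptors to lysosomes, had a fold change of 1.41. Of the 16 genes, 15 were tested, 6 were higher, 4 lower, and 5 not called, with a median log2 fold change of 0.12. Both sheddases of MET in the list were near their P levels or above, as Adam10 did not pass (log2 fold change 0.12, adjusted p = 0.119 from edgeR) and Adam17 had a log2 fold change of 0.25.

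Other serine proteases of the cell surface and pericellular space were mostly not expressed. Of 23, 15 did not exceed 3 counts in any library, including Hpn (hepsin), Tmprss13, F11, F12, and Klkb1, each of which can cleave HGF. The expressed genes of the list were not sorted by that ability. All 7 tested genes were called, 4 higher and 3 lower, with a median log2 fold change of 0.35, where 63.5% of all tested genes were called in either direction. Plau, encoding urokinase plasminogen activator, fell most. It had 144, 149, and 155 CPM in P replicates 1 to 3 and 53.9, 50.3, and 48.9 CPM in AxR replicates 1 to 3, a fold change of 0.342 (log2 fold change -1.55, adjusted p = 8.44e-12 from edgeR). Furin, the convertase that processes the MET precursor, had a fold change of 0.757. Tmprss11e was also called lower, from 285 CPM in P to 218 CPM in AxR cells on average (log2 fold change -0.38, adjusted p = 4.71e-05 from edgeR). Prss23 had the largest rise, from 34.6 ± 3.81 to 89.7 ± 3.31 CPM (SD, n = 3 each). Prss8, encoding prostasin, which acts with matriptase and is held by the same inhibitors, had 6.93, 8.03, and 7.37 CPM in P replicates 1 to 3 and 16.2, 14.5, and 13.3 CPM in AxR replicates 1 to 3, a fold change of 1.96 (adjusted p = 2.05e-06 from edgeR). Tmprss6, encoding matriptase-2, had 2 counts in each P library and 3, 12, and 24 counts in AxR replicates 1 to 3, and it was not tested.

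Of the 14 genes listed as other protease inhibitors, 5 were tested, 3 were higher, and 2 lower, beside the same 63.5% of all tested genes called. The list also holds Dcn, a proteoglycan gene, which was not tested. Serpine2, encoding protease nexin 1, had 191, 194, and 153 counts in P replicates 1 to 3 and no count in AxR cells, where it was at least 57.1-fold lower in CPM with AxR cells at 3 counts per library. Serpinb5 (maspin) and Tfpi, an inhibitor of tissue factor, rose from 1.46 ± 0.340 to 4.47 ± 0.373 CPM and from 0.929 ± 0.194 to 2.39 ± 0.152 CPM (SD, n = 3 each). Serpinb6a was the other gene called lower, by 0.13 on the log2 scale (adjusted p = 0.0417 from edgeR, between 0.0203 and 0.17 over all alternatives), and it lost the call without P replicate 2, P replicate 3 (adjusted p = 0.170), AxR replicate 1 (0.0694), or AxR replicate 3 (0.119), with no low-count filter (0.0523), and with a replicate block (0.0724).

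Among known substrates and partners of matriptase, Cldn7 and Plau had the largest falls. Of 11, 10 were tested, 6 lower, 3 higher, and 1 not called, with a median log2 fold change of -0.30. Cldn7, a tight-junction claudin that binds EpCAM, had 6.87, 9.06, and 8.74 CPM in P replicates 1 to 3 and 0.762, 0.638, and 0.853 CPM in AxR replicates 1 to 3, a log2 fold change of -3.43 (adjusted p = 1.66e-09 from edgeR). F2rl1, encoding the matriptase-activated receptor PAR2, had a fold change of 0.508, from 37.8 ± 1.42 to 19.2 ± 0.342 CPM (SD, n = 3 each). Epcam, cut by matriptase, was higher, with a fold change of 1.71, and Epcam and Cldn7 are also epithelial markers here. Plau and Prss8 belong to this list as well as to the protease list. Counting each gene of the 6 lists once, 62 of 91 were tested, 23 were higher, and 25 lower, against the 63.5% of all tested genes called in either direction.

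**Figure D5:**
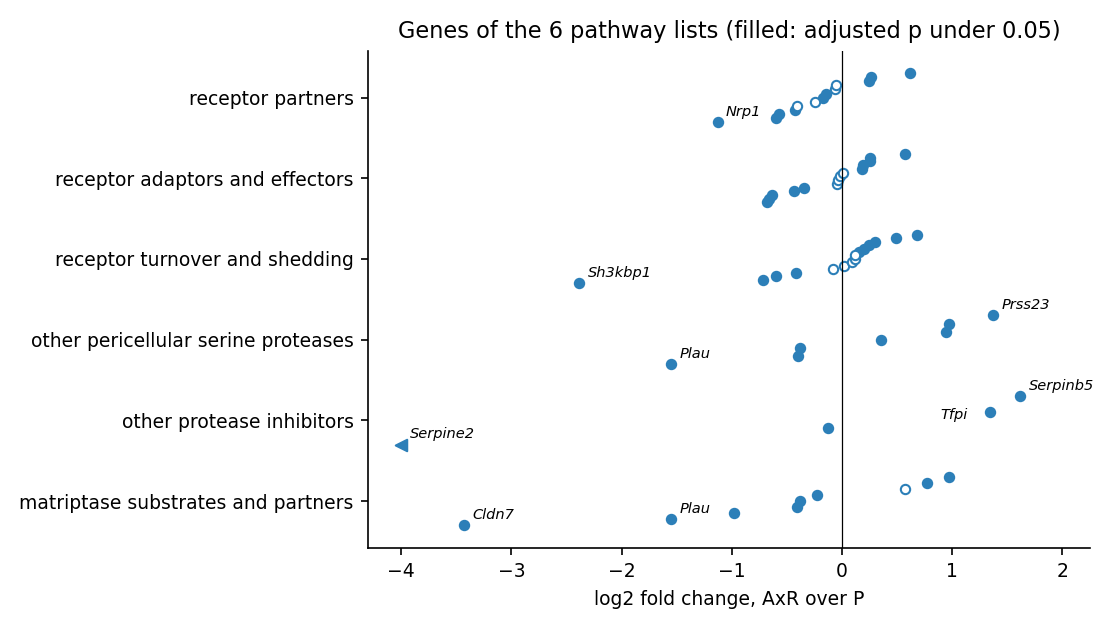
Log2 fold change (AxR over P) of tested genes in 6 lists of the pathway, 1 circle per gene shown, filled where the adjusted p is under 0.05, with names for absolute values of at least 1. Serpine2 had no count in AxR cells and is drawn as a triangle at the left edge without a scale, Cldn7 lies at -3.43 and Sh3kbp1 at -2.38, and Serpinb5 lies farthest to the right at 1.62.

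Markers of the labeled cell type and of possible companions were read beside these results. Of 11 mammary epithelial markers, 10 were tested, 6 were higher and 4 lower, Krt5 had no count, and their summed level was between 2196 and 2424 CPM in P libraries and between 3254 and 3425 CPM in AxR libraries. Spint2 moved in the direction of that sum and Spint1 against it. The 4 lower markers, Krt19, Cldn3, Cldn4, and Cldn7, moved in the direction of Spint1. The part of epithelial genes in either result was not tested. Fibroblasts commonly make HGF, and of 10 fibroblast markers only Pdgfra was tested, with Col3a1, Lum, and Thy1 at 0. Their summed level was between 22.5 and 24.2 CPM in P and between 10.5 and 11.99 CPM in AxR libraries (Pdgfra itself had 22.6 and 10.1 CPM on average). Untested fibroblast markers went both ways at low counts. Pdgfrb had no count in P cells and 5, 6, and 4 counts in AxR replicates 1 to 3. Col1a2 had 0, 0, and 2 counts in P and 3, 5, and 3 in AxR replicates, and Acta2 had 0, 0, and 1 in P and 2, 2, and 4 in AxR replicates. Col1a1 went the other way, with 14, 10, and 3 counts in P and 4, 5, and 3 in AxR replicates. Fap overlapped, with 2, 0, and 3 counts in P and 2, 4, and 0 in AxR replicates. Hepatocytes are the main source of Mst1 and Hgfac mRNA, and no hepatocyte marker of 5 exceeded 3 counts in any library. Of 10 leukocyte markers, 8 never exceeded 3 counts and only Cd68 was tested, which was higher, and the summed level was between 3.52 and 3.78 CPM in P and between 8.19 and 8.38 CPM in AxR libraries. Of 6 endothelial markers none was tested, and their sum did not exceed 0.693 CPM in any library. Of 6 lung epithelial markers Foxj1 alone was tested and was higher, and the sum was between 0.577 and 1.15 CPM in P and between 4.15 and 4.21 CPM in AxR libraries. Whether any of these cells contributed to a result was not tested.

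The genes most like each member across the 6 libraries were sought among 9250 genes of at least 10 CPM by Pearson's r of log2 CPM. For Met these were Nop10, Npr3, and Ywhab (r of at least 0.997), for Spint1 Flii, Polb, and Gatc (at least 0.998), and for Spint2 Zbtb24, Ext2, and Vps18 (at least 0.9986). With 2 lines the difference between them dominates r, and 472, 1150, and 1229 genes, respectively, exceeded an r of 0.95. St14, which did not separate the lines, had 5 such genes, led by Zbtb43 (r = 0.991), Grhl2, an epithelial transcription factor (0.979), and Slc30a6 (0.979). These values are a description of the same 6 libraries.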

How the data were processed

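Polyadenylated RNA of 3 P and 3 AxR samples was sequenced with a strand-marking kit. The authors aligned reads to GRCm38 (GENCODE M16) with STAR 2.6.0a and deposited estimated counts per gene from RSEM 1.3.1, before filtering and normalization. RSEM divides multi-mapped reads by likelihood, and whether strand was used in counting is not given in the sources used here. Groups came from the sample labels.

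Estimated counts were rounded, passed through filterByExpr, scaled by upper quartile, and tested by robust quasi-likelihood F test in edgeR 4.0.16 (R 4.3.3) with cell line as sole term. Benjamini-Hochberg adjustment ran over the 13550 genes tested. Symbols, positions, and exon lengths came from GENCODE M21 (53274 of 53465 identifiers matched). Log2 CPM used a prior count of 2, and ratios a pseudocount of 0.5 CPM. A gene that never exceeded 3 counts within a line was taken to be at the floor there. The tests were also tried on simulated counts.

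The members and lists were chosen with earlier results of these data known. Besides all members, the genes named were the 2 highest and 2 lowest called log2 fold changes of each list (at least 1 CPM), genes at the floor in 1 line, the 3 nearest tested genes on each side, and the 3 genes most like each tested member. Adam10, Adam17, F2rl1, Epcam, Plxnb1, Gab2, Tmprss11e, and the markers and unexpressed proteases named were chosen after their values were seen. Some list genes are counted but not reported or drawn singly here. Alternatives were TMM, library size only, DESeq2 1.42.0, limma-voom 3.58.1, other count filters, a replicate block, chromosome centring, each library left out, and a fold threshold. The count of members called after chromosome centring was added after seeing the data. Depth is given per library, and intervals and floors cover counting error or replicate spread only.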

Additional observations from a re-analysis of the deposited data

How the results depend on the processing

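Spint1, Met, and Spint2 kept their direction and their adjusted p under 0.05 with TMM, library size only, DESeq2, limma-voom, other count filters, and each library left out. Their log2 fold changes then lay between -0.47 and -0.38 (Spint1), -0.25 and -0.19 (Met), and 0.25 and 0.31 (Spint2) with each library left out. St14 lay between -0.0037, without AxR replicate 3, and 0.060. It was 0.26 after subtraction of its chromosome's median (adjusted p = 0.000490 from edgeR), where Spint2 was 0.097 (0.113). Centring on chromosomes still gave 1 member higher, but St14 in place of Spint2. The share of all genes called under that setting was not computed, so this call sets no member apart. The replicate numbers did not pair the samples (r of the deviations of same-numbered libraries from -0.022 to -0.0061), and with the replicate block the counts of members called were still 1 higher and 2 lower, 22 genes of the lists were higher and 24 lower, and 4304 of all genes were higher and 4023 lower. Requiring an absolute log2 fold change of 1 or more left 0 members higher and 0 lower in edgeR, at any p, since the largest absolute value was that of Spint1 at -0.44, 4 genes of the lists higher and 5 lower, and 1083 of all genes higher and 640 lower, which follows from the added criterion. Leaving out a library gave 21 to 25 list genes higher and 24 to 25 lower, and 4124 to 4499 of all genes higher and 3782 to 4112 lower. The changes in log2 ratio stayed between 0.42 and 0.50 (St14 to Spint1), -0.27 and -0.23 (St14 to Spint2), and -0.75 and -0.66 (Spint1 to Spint2). Of 285 recomputed log2 fold changes of the list genes named by the fixed rule, 279 kept their call, and the exceptions were all of Serpinb6a. Of 168 recomputed counts of single lists, 150 stayed within 1.5 times. At this depth no level under 0.171 to 0.196 CPM could be read.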
